A study of Mus musculus with 3 samples.

Results

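Langerhans cells are the dendritic cells of the epidermis, and 218 barcodes among 26143 kept barcodes of mouse dorsal skin carried their transcripts. A barcode stands for 1 droplet and ideally for 1 cell. Barcodes were kept at 300 or more detected genes, 500 or more unique molecular identifiers (UMIs, each a captured transcript) and at most 10% of UMIs from mitochondrial genes. Langerhans cells were then chosen by their counts, as those with 2 or more UMIs of Cd207, 10 or more UMIs of Cd74, H2-Aa and H2-Ab1 together, and no UMI of the T cell gene Cd3e. Of the 218, 57 also held 1% or more of their UMIs in the basal keratins Krt5 and Krt14. These may be doublets of a Langerhans cell and a keratinocyte and are kept apart, so that 161 Langerhans cells under 1% keratin carry the profiles below. The values of Cd207, Cd74, H2-Aa and H2-Ab1 chose the cells and are given as a description, with no test.

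Langerhans cells sit between keratinocytes, to which they adhere, and sample antigen for presentation on MHC class II molecules. In mice they arise largely from embryonic precursors that seed the epidermis around birth, multiply there and then maintain themselves locally. They depend on signalling through the CSF1 receptor and on TGF-beta, and on activation they leave for the draining lymph node. Cd207 encodes langerin, the C-type lectin of their Birbeck granules, and Epcam encodes an adhesion molecule that they share with keratinocytes but not with most dermal myeloid cells.

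Dorsal skin of C57BL/6 mice was dissociated and sequenced cell by cell in droplets. The neonatal stage, 3 weeks of age and 2 months of age are each represented by a single library, and the labels name no genetic or drug treatment. Every library came from minced biopsies digested with collagenase D and DNase, with no sort for immune cells and no separation of epidermis from dermis named in the labels. The number of animals in a library and their sex are not given in the labels. The deposited libraries held 84086755 UMIs (neonatal), 113874172 UMIs (3 weeks) and 98432611 UMIs (2 months), and kept barcodes had medians of 8685, 11142.5 and 8529.5 UMIs in the same order. Between 27 and 35 barcode sequences were shared by each pair of libraries, and 1 Langerhans barcode of each older library also occurred in the neonatal one. With 1 library per age no difference between ages was tested. Intervals are 95% intervals for counting error only, from exact binomial (Clopper-Pearson) limits where a share is given and Poisson limits where a level is given. Levels are counts per 1000000 UMIs (CPM) of the summed Langerhans cells of a library.

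Langerhans cells as chosen by the rule were nearly missing from the neonatal library and made up a like share of both later libraries. The rule cannot count Langerhans cells or precursors whose Cd207 or class II counts lie under its limits. The neonatal library held 1 Langerhans cell among 7911 kept barcodes, a share of 0.0126% (0.00032 to 0.0704). The 3 week library held 104 among 8900, or 1.17% (0.956 to 1.41). The 2 month library held 113 among 9332, or 1.21% (0.999 to 1.45). The interval of the neonatal share lies far below the other intervals, which overlap each other almost whole. Keratinocytes were sparse in the neonatal library too: barcodes at 1% keratin or more that were not Langerhans cells numbered 89 (neonatal), 860 (3 weeks) and 582 (2 months). For each 100 such keratinocyte barcodes there were 1.12 Langerhans cells in the neonatal library, 12.1 at 3 weeks and 19.4 at 2 months. How the yield of epidermis enters these shares was not tested.

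Few barcodes lay near the limits of the rule. Members with only 2 or 3 Cd207 UMIs numbered 10 at 2 months and 3 at 3 weeks, and barcodes with exactly 1 Cd207 UMI that met every other condition numbered 10 at 2 months and 2 at 3 weeks. Barcodes with 2 or more Cd207 UMIs but under 10 class II UMIs numbered 2 (neonatal), 0 (3 weeks) and 2 (2 months). Median Cd207 counts of the members were 23 UMIs at 2 months and 46.5 UMIs at 3 weeks, well above the limit of 2. A Cd207 UMI was seen in 0.442% of fibroblast-gate barcodes at 2 months (median 10975 UMIs) and 0.955% at 3 weeks (median 12464 UMIs). In the keratinocyte gate it was seen in 2.75% at 2 months (median 9768.5 UMIs) and 1.05% at 3 weeks (median 11455.5 UMIs). Both gates leave out barcodes past both the Cd207 and class II limits, so these shares do not count them. The macrophage gate admits no Cd207 UMI and gives no such share. The keratin limit cut through a denser region at 2 months, where 9 members lay between 0.5% and 1% keratin and 15 between 1% and 1.5%, than at 3 weeks, where the counts were 1 and 8.

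**Figure D1:**
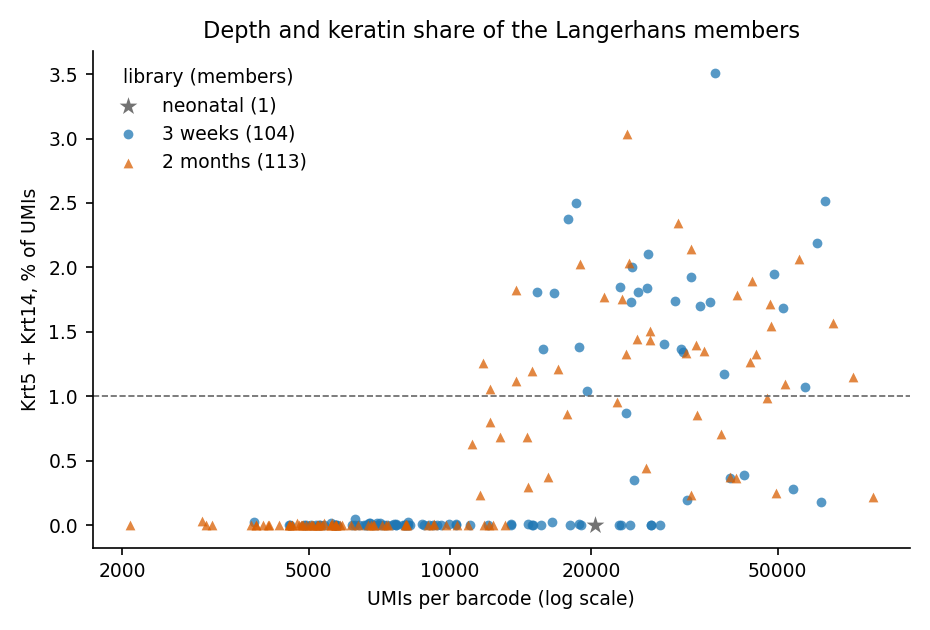
UMIs per barcode (log axis) against the percentage of UMIs from Krt5 and Krt14 for each Langerhans cell, by library. Members at 1% keratin or more had medians of 28734 UMIs at 2 months and 28629 UMIs at 3 weeks, against 5897 and 8039 UMIs for members under 1%.

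Markers that the rule did not use fitted the label in most members but not in all. Epcam was detected in 74 of 83 Langerhans cells under 1% keratin at 2 months and in 71 of 77 at 3 weeks. Genes of the dermal type 1 dendritic cells, which can also carry Cd207, were seen in few members: Xcr1 was seen in 2 cells of each library and Clec9a in 2 cells at 2 months and 3 cells at 3 weeks. The 5 type 1 markers summed to 61.8 CPM at 2 months and 65.4 CPM at 3 weeks in Langerhans cells, against 118 and 54.7 CPM in a gate for dermal dendritic cells, so that they did not separate the classes. Summed levels of 5 type 2 dendritic cell markers were 99.7 CPM at 2 months and 99.1 CPM at 3 weeks in Langerhans cells. They were 1357 and 1536 CPM in that gate, and higher still in the macrophage gate, at 2363 and 1891 CPM. These markers are thus not particular to dendritic cells here. The 4 monocyte markers summed to 403 and 539 CPM in the dendritic cell gate, against 17.3 and 2.04 CPM in Langerhans cells. The makeup of that gate was not tested.

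A small subset went against the label. No Mfge8 UMI was found in 12 members under 1% keratin, 7 at 2 months and 5 at 3 weeks, and every member with an Xcr1 or Clec9a UMI, 6 in all, was among them. Epcam was seen in 2 of these 7 and 1 of these 5 members, against 72 of 76 and 70 of 72 of the others. Their median Cd207 counts were 5 UMIs at 2 months and 7 UMIs at 3 weeks, against 22 and 49.5 UMIs in the others. The median counts of Cst3, a gene that type 1 dendritic cells hold at a high level, were 280 and 298 UMIs, against 77 and 84 UMIs. These members met the rule and stay in the profiles. Without them, a setting added after the data had been seen, 252 genes were higher and 356 lower than in dermal dendritic cells, against 241 and 309 with them.

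Transcripts of other cell types were nevertheless present in some members, and their amounts differed between the libraries. The 9 keratinocyte markers summed to 7693 CPM at 2 months and 2207 CPM at 3 weeks, although 59 of 83 cells at 2 months and 52 of 77 at 3 weeks had no Krt5 or Krt14 UMI. The 6 fibroblast markers summed to 13685 CPM at 2 months and 23493 CPM at 3 weeks, and the 3 melanocyte markers to 11.9 and 613 CPM. The 9 macrophage markers summed to 229 CPM at 2 months and 72.6 CPM at 3 weeks. The neutrophil genes Retnlg, Ly6g and Csf3r and the lymphocyte genes Nkg7, Gzmc and Ctsw were at 0 in both libraries. Other lymphocyte genes were not: the 8 markers of T or innate lymphoid cells summed to 47.7 CPM at 2 months and 85.9 CPM at 3 weeks. A UMI of the T cell genes Cd3d or Cd3g was seen in 1 member under 1% keratin at 2 months and 3 at 3 weeks. Deep barcodes carry more weight in summed levels, so age differences of several genes are also given without members above 2 times the median UMIs of their library, a limit added after the data had been seen.

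Langerhans cells under 1% keratin varied widely in the genes that define them. Cd207 ranged over cells between 100.4 and 31911 CPM at 2 months, with a median of 2927 CPM, and between 80.9 and 23421 CPM at 3 weeks, with a median of 5075 CPM. Mfge8, which encodes a secreted bridging protein for the uptake of dying cells and vesicles, had a median of 1327 CPM at 2 months (quartiles 565 and 3281) and of 5328 CPM at 3 weeks (quartiles 2818 and 7720.5). The quartile ranges overlapped between the libraries, while the medians lay outside each other's range. Epcam had cell medians of 449.7 CPM at 2 months and 648 CPM at 3 weeks with widely overlapping quartiles.

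**Figure D2:**
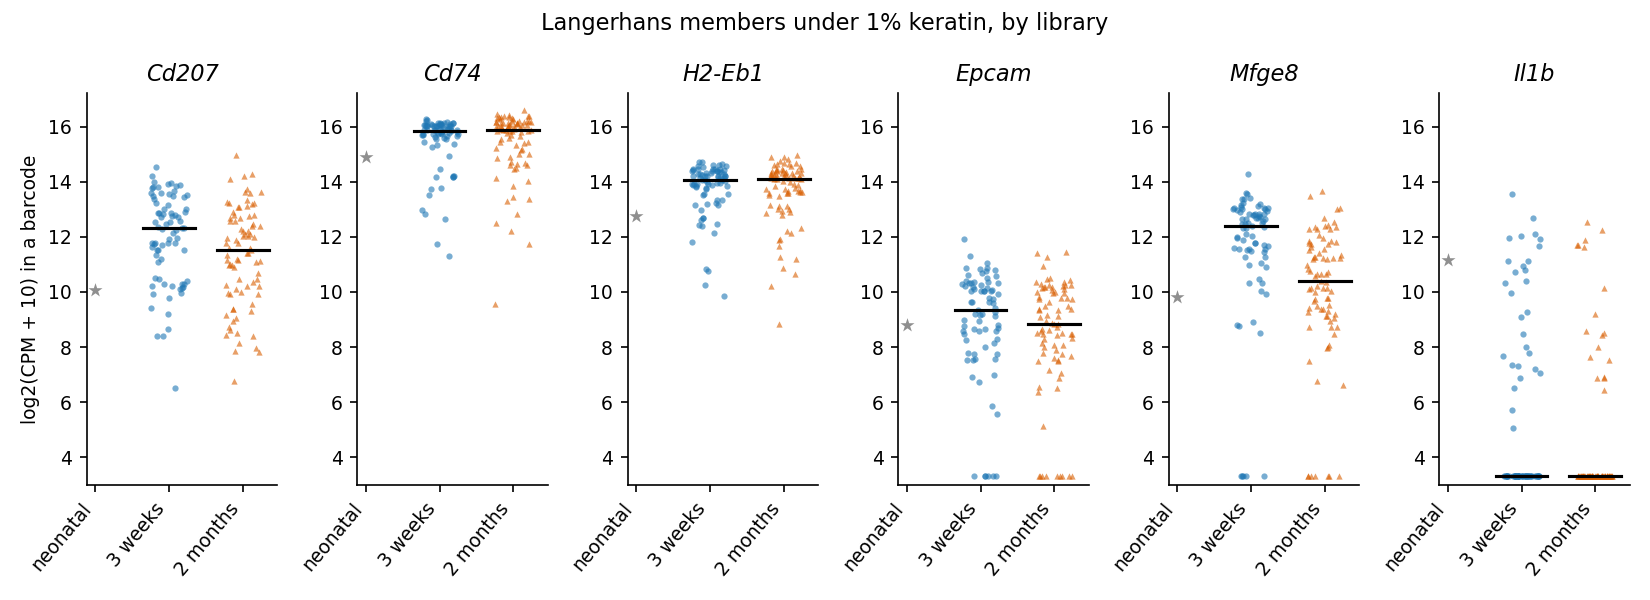
Each point is 1 Langerhans cell under 1% keratin, as log2(CPM + 10), for 6 genes in the neonatal, 3 week and 2 month libraries, with bars at the medians of the later libraries. These libraries overlap for Epcam and the class II genes, with Cd74 cell medians of 60785.5 CPM at 2 months and 59346 CPM at 3 weeks, while Mfge8 cell medians are 1327 and 5328 CPM.

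The class II presentation genes were the most abundant immune transcripts of these cells. Cd74, which encodes the invariant chain, reached 32579.8 CPM at 2 months and 37791 CPM at 3 weeks. H2-Aa stood at 8953 and 12005 CPM, H2-Ab1 at 8007 and 10887 CPM, and H2-Eb1 at 9864 and 12022 CPM, each at 2 months and 3 weeks in that order. Cd74, H2-Aa and H2-Ab1 were part of the rule, and H2-Eb1 is co-expressed with them, so their height is a description. The peptide-loading genes H2-DMa and H2-DMb1 followed at 1135 and 904 CPM at 2 months and 1367 and 1073 CPM at 3 weeks, and H2-DMb2 at 204 and 212 CPM. H2-Oa and H2-Ob, whose product restrains H2-DM, were lowest, with 18.4 and 20.6 CPM at 2 months and 25.6 and 17.4 CPM at 3 weeks.

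Class II genes are known to be switched on by CIITA through paired promoter elements, the X and Y boxes. Promoters are shown for H2-Aa, H2-Eb1, H2-DMb2 and H2-Oa because their transcripts span the range from the abundant H2-Aa and H2-Eb1 to the scarce H2-Oa. The stretches run from 250 bases before to 50 bases after the gene start in RefSeq (GRCm38.p6), read 5′ to 3′ on the gene's strand, and capitals mark TGATTGG, a core of the Y box, and GCAAC, a core of the X box, where it lies at most 40 bases before TGATTGG.
H2-Aa, chr17:34287774-34288073, minus strand: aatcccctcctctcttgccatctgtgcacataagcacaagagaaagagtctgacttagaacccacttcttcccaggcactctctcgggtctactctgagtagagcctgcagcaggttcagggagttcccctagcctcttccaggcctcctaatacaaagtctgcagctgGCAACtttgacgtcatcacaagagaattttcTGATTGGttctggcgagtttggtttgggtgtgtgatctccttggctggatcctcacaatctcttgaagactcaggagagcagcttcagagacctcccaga
H2-Eb1, chr17:34305617-34305916, plus strand: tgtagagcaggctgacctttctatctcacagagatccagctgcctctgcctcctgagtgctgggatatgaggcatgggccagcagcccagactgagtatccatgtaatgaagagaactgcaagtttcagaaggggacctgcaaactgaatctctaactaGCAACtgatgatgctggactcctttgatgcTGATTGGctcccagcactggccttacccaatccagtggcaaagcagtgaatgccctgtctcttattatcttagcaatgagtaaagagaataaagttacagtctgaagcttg
H2-DMb2, chr17:34144999-34145298, plus strand: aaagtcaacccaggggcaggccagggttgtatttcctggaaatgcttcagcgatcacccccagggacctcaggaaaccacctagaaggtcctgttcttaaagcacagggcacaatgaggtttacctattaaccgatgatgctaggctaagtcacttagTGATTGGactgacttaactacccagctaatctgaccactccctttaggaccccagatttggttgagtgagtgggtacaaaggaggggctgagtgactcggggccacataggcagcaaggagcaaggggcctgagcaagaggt
H2-Oa, chr17:34092129-34092428, plus strand: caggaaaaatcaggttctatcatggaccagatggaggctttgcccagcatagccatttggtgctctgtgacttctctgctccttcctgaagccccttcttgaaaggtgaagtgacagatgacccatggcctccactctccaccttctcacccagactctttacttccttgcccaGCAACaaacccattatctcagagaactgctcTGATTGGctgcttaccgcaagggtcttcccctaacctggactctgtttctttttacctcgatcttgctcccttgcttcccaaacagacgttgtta
Between GCAAC and TGATTGG lie 26 bases in H2-Aa, 25 in H2-Eb1 and 26 in H2-Oa, and H2-DMb2 has TGATTGG with no GCAAC in that range. Of the 15 listed class II pathway genes 11 had a promoter in the table, 7 of these held TGATTGG on either strand and 5 held the pair. Among all 32851 promoters of this length 7.82% held TGATTGG, 35.2% held GCAAC and 0.350% held the pair. The promoters of Cd207, Mfge8 and Epcam held no TGATTGG. The pair is thus present in the promoter of the low H2-Oa as well as in those of the abundant H2-Aa and H2-Eb1, and the match is a description of letters only.

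Langerhans cells were next set against the other myeloid cells of the same libraries. A gate for dermal dendritic cells took barcodes with the same class II limit, 2 or more UMIs of Tyrobp and Fcer1g, at most 1 UMI of the C1q genes and no Cd207 UMI (62 barcodes at 2 months, 29 at 3 weeks). A gate for macrophages took barcodes with 10 or more C1q UMIs and no Cd207 UMI (138 at 2 months, 132 at 3 weeks). The 6 summed profiles, 3 classes in each of the 2 later libraries, were fitted together with library as a block by edgeR's quasi-likelihood test with Benjamini-Hochberg adjustment over 8088 genes, and genes of any gate were not tested. The p-values measure the spread among these summed profiles, of which each class has 1 per library.

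Against dermal dendritic cells, Langerhans cells were set apart by adhesion, Mfge8 and eicosanoid genes. Of all genes tested 2.98% were higher and 3.82% lower in Langerhans cells, and 6 of the 13 tested identity and adhesion genes were higher and 0 lower. Mfge8 had 1471 and 4042 CPM in Langerhans cells at 2 months and 3 weeks, against 31.5 and 54.7 CPM in dermal dendritic cells (log2 difference 5.85 ± 0.32 SE, edgeR adjusted p = 0.00018). Epcam had 422 and 646 CPM in Langerhans cells, against 23.6 and 58.9 CPM (3.78 ± 0.50, edgeR adjusted p = 0.0042), a call lost by DESeq2's Wald test (adjusted p = 0.167). The Langerhans levels lay above both dendritic cell levels for each of these genes.

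The other identity genes called included a nonclassical class I gene and a tight junction gene. H2-M2 had 2092 and 2042 CPM in Langerhans cells, against 0 and 88.4 CPM in dermal dendritic cells (edgeR adjusted p = 0.0082). Cldn1, which encodes the tight junction protein claudin-1, had 584 and 746 CPM, against 92.4 and 42.1 CPM (3.33 ± 0.48, edgeR adjusted p = 0.0056). Cd24a differed less, with 312 and 354 CPM against 142 and 168 CPM (1.09 ± 0.25, edgeR adjusted p = 0.039), a call lost without the library block and without any 1 of the 4 profiles compared. Cdh1, which encodes the E-cadherin that ties Langerhans cells to keratinocytes, had 137 and 133 CPM against 66.9 and 37.9 CPM and missed the threshold (1.34 ± 0.35, edgeR adjusted p = 0.058). Keratinocytes express Epcam, Cldn1 and Cdh1 as well (219, 263 and 207 CPM in the keratinocyte gate at 2 months). Mfge8 and H2-M2 stood at 7.11 and 4.40 CPM there. Fibroblasts often held Mfge8, in 74.0% of fibroblast-gate barcodes at 3 weeks (median 12464 UMIs), whereas H2-M2 was seen in 0.159% of them.

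Eicosanoid synthesis genes were prominent among the higher ones, 7 of the 16 tested genes of the lipid list being higher and 0 lower. Against macrophages the same list had 5 genes higher and 5 lower, so its direction is particular to the comparison with dermal dendritic cells. Ptgs1, which encodes cyclooxygenase-1, had 260.1 and 367 CPM in Langerhans cells at 2 months and 3 weeks, against 3.93 and 12.6 CPM in dermal dendritic cells (5.42 ± 0.47, edgeR adjusted p = 0.00082). Hpgds, the haematopoietic prostaglandin D synthase, had 569 and 616 CPM, against 0 and 12.6 CPM (edgeR adjusted p = 0.00084). Ltc4s, the leukotriene C4 synthase, had 438 and 494 CPM, against 1.97 and 0 CPM (edgeR adjusted p = 0.00018). These enzymes of prostaglandin and cysteinyl leukotriene synthesis were thus detected in most Langerhans cells, Hpgds in 76 of 83 cells at 2 months and 71 of 77 at 3 weeks. Macrophages held Ltc4s too, in 47.8% of barcodes at 2 months (median 4215.5 UMIs) and 47.0% at 3 weeks (median 5005 UMIs). The Langerhans shares were 90.4% (median 5897 UMIs) and 90.9% (median 8039 UMIs). Alox5, the 5-lipoxygenase, had 84.5 and 103 CPM, against 19.7 and 54.7 CPM (1.48 ± 0.35, edgeR adjusted p = 0.043), a call lost in 6 of 16 other settings. Apoe and Fabp5 were also called higher, but 99.3% of the Fabp5 UMIs at 2 months and 98.1% at 3 weeks came from 3 cells. Without the deepest members the difference was -0.54 for Apoe and -2.83 for Fabp5.

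Growth factor and costimulatory receptors differed too. Csf1r, the receptor for CSF1 and IL-34, had 197 and 326 CPM in Langerhans cells at 2 months and 3 weeks, against 29.5 and 58.9 CPM in dermal dendritic cells (2.60 ± 0.35, edgeR adjusted p = 0.0042). Cd86, a costimulatory ligand, had 418 and 478 CPM, against 53.1 and 147 CPM (2.28 ± 0.38, edgeR adjusted p = 0.0097). Il1r2, the decoy receptor for IL-1, had 1363 and 2149.6 CPM, against 199 and 316 CPM (2.78 ± 0.65, edgeR adjusted p = 0.039), a call lost with all members and without the Langerhans profile of 3 weeks. Runx3, a transcription factor required for Langerhans cells, had 164 and 230.0 CPM, against 35.4 and 84.1 CPM (1.81 ± 0.37, edgeR adjusted p = 0.023), a call lost by DESeq2's Wald test and with all members. Among lists fitting these receptors, 1 of 15 IL-1 family genes was higher and 2 lower, 1 of 15 maturation genes higher and 1 lower, and 1 of 19 genes of the CSF1 receptor and TGF-beta list higher and 1 lower.

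Genes lower in Langerhans cells than in dermal dendritic cells included members of the lists of lectins, Fc receptors, interferon response and chemokine receptors. Of 18 lectins and pattern receptors 8 were lower and 1 higher. Cd209a, a DC-SIGN family lectin, had 1.08 and 0 CPM in Langerhans cells, against 446 and 648 CPM in dermal dendritic cells (edgeR adjusted p = 0.00082). Mgl2, a galactose-type lectin, had 18.4 and 13.3 CPM, against 553 and 522 CPM (-5.09 ± 0.30, edgeR adjusted p = 0.00018). Clec4n, which encodes dectin-2, went the other way with 114 and 164 CPM, against 0 and 29.5 CPM (3.74 ± 0.81, edgeR adjusted p = 0.03), a call lost by DESeq2's Wald test. The inhibitory receptor gene Lilrb4a had no UMI in Langerhans cells and 114 and 311 CPM in dermal dendritic cells, at least 112-fold lower over the summed profiles with a floor of 3 counts, and 5 of 9 Fc receptor and adaptor genes were lower.

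Ccr2, the chemokine receptor of monocyte-derived cells, had 8.67 and 2.04 CPM in Langerhans cells, against 149 and 126 CPM in dermal dendritic cells (-4.69 ± 0.45, edgeR adjusted p = 0.00099). Of 11 chemokine receptor and adhesion genes 5 were lower and 0 higher, and of 18 interferon response genes 8 were lower and 0 higher. Lyz2, a lysozyme gene of macrophages and monocytes, had 239.5 and 171 CPM, against 2688 and 5747 CPM (-4.37 ± 0.45, edgeR adjusted p = 0.0012). Lineage factors of dermal dendritic cells were low as well. Irf4 had 3.25 and 7.16 CPM, against 31.5 and 54.7 CPM (-2.99 ± 0.49, edgeR adjusted p = 0.0089), and Zeb2 had 33.6 and 58.3 CPM, against 275 and 408 CPM (-2.91 ± 0.31, edgeR adjusted p = 0.0013). Few class II genes, for which both gates had the same limit, were called: of 11 tested 1, H2-DMb2, was higher and 1, Ifi30, was lower. The H2-DMb2 call was lost with all members and without the Langerhans profile of 3 weeks, and H2-Eb1 had 9864 and 12022 CPM, against 7463 and 6694 CPM (0.67 ± 0.52, edgeR adjusted p = 0.55).

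**Figure D3:**
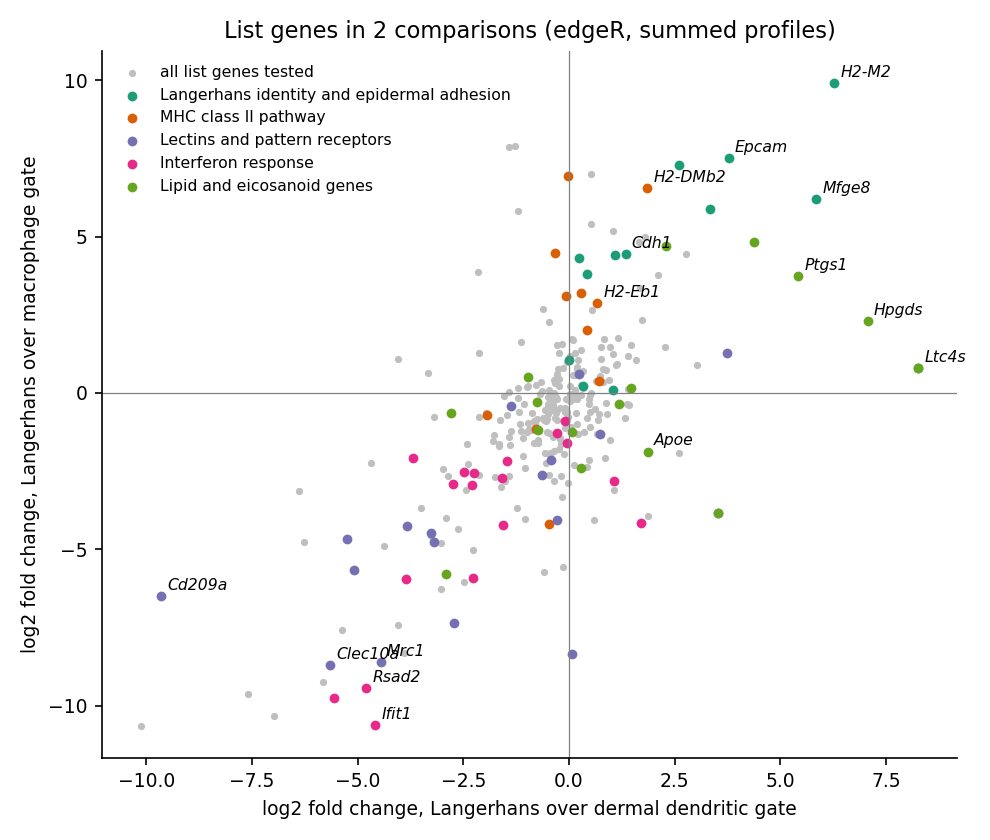
Log2 difference of Langerhans cells over dermal dendritic cells (horizontal axis) and over macrophages (vertical axis) for the tested genes of the lists, each point 1 gene, with 5 lists in colour. Mfge8 and Epcam lie high in both comparisons (5.85 and 6.21 for Mfge8), Cd209a and Rsad2 low in both (-4.79 and -9.43 for Rsad2), and H2-Eb1 lies at 2.87 over macrophages and 0.67 over dendritic cells.

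Against macrophages the differences were wider, with 11.6% of all genes higher and 14% lower in Langerhans cells. Of 13 identity and adhesion genes 11 were higher and 0 lower. Mfge8 had 1471 and 4042 CPM in Langerhans cells, against 22.6 and 48.7 CPM in macrophages (6.21 ± 0.32, edgeR adjusted p = 3e-05). Epcam had 422 and 646 CPM, against 6.02 and 0 CPM (edgeR adjusted p = 0.00016). Ly75, which encodes the uptake receptor DEC-205, had 23.8 and 31.7 CPM, against 0 in both macrophage profiles, at least 13.8-fold higher with the floor of 3 counts (edgeR adjusted p = 0.0031). Cdh1 had 137 and 133 CPM, against 10.5 and 2.43 CPM (4.44 ± 0.43, edgeR adjusted p = 0.00024).

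Class II presentation genes were higher over macrophages for 6 of 11 tested and lower for 2. H2-Eb1 had 9864 and 12022 CPM in Langerhans cells, against 3033 and 596 CPM in macrophages (2.87 ± 0.58, edgeR adjusted p = 0.008). H2-DMa had 1135 and 1367 CPM, against 173 and 99.8 CPM (3.21 ± 0.34, edgeR adjusted p = 0.00033). The Langerhans rule asks for class II UMIs and the macrophage rule does not, so the direction of this list is linked to the choice of cells. The 2 lower genes, Ctss and Lgmn, encode proteases that cut invariant chain and antigen, and the call of Ctss was lost in 6 of 16 other settings. Lysosomal genes were lower more widely, 17 of 22 against 1 higher: Ctsb, the cathepsin B gene, had 350.1 and 445 CPM, against 3922 and 3897 CPM (-3.32 ± 0.26, edgeR adjusted p = 0.00011). Cst3, a protease inhibitor gene typical of dendritic cells, was the exception at 8456 and 9046 CPM, against 5429.7 and 3132 CPM (1.09 ± 0.26, edgeR adjusted p = 0.015), a call lost without the library block, with all members and without the Langerhans profile of 3 weeks.

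Inflammatory and interferon genes were low in Langerhans cells relative to macrophages. Of 18 interferon response genes 15 were lower and 0 higher: Rsad2, which encodes the antiviral protein viperin, had 2.17 and 1.02 CPM in Langerhans cells, against 1139 and 1292 CPM in macrophages (edgeR adjusted p = 2.8e-05). Isg15 had 36.9 and 45.0 CPM, against 732 and 804 CPM (-4.22 ± 0.28, edgeR adjusted p = 6.7e-05). Of 18 cytokine and chemokine genes 12 were lower and 1 higher. Ccl4, a chemokine gene, had 10.8 and 4.09 CPM, against 9626 and 10213 CPM (-10.35 ± 0.91, edgeR adjusted p = 0.00016). Ccl2 had 33.6 and 66.4 CPM, against 1487 and 4213 CPM (-5.73 ± 0.32, edgeR adjusted p = 3.2e-05), while fibroblasts held 1569.9 and 843 CPM. Il10 had no UMI in Langerhans cells and 67.8 and 47.5 CPM in macrophages, at least 35.8-fold lower (edgeR adjusted p = 0.00039).

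Tnf and Il1b did not follow that pattern past the threshold. Tnf had 247 and 297 CPM in Langerhans cells at 2 months and 3 weeks, against 398 and 554 CPM in macrophages (-0.78 ± 0.28, edgeR adjusted p = 0.076), and was called higher than in dermal dendritic cells at 66.9 and 168 CPM (1.32 ± 0.31, edgeR adjusted p = 0.043), a call lost in 6 of 16 other settings. Il1b had 210.3 and 784 CPM, against 137 and 162 CPM in macrophages (1.29 ± 0.59, edgeR adjusted p = 0.15) and 507 and 4805 CPM in dermal dendritic cells (-2.13 ± 0.58, edgeR adjusted p = 0.069). The receptor genes of the IL-1 family were called over macrophages: Il1r2 with 1363 and 2149.6 CPM, against 145 and 26.8 CPM (4.44 ± 0.72, edgeR adjusted p = 0.0027), and Il1r1, the signalling receptor, with 32.5 and 22.5 CPM, against 4.52 and 10.95 CPM (1.75 ± 0.52, edgeR adjusted p = 0.04), a call of Il1r1 that was lost in 6 of 16 other settings. The inflammasome sensor gene Nlrp3 had 7.59 and 18.4 CPM, against 46.7 and 81.5 CPM (-2.30 ± 0.37, edgeR adjusted p = 0.0027). Over the list 3 of 15 genes were higher and 6 lower.

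Lineage factors split the classes. Runx3 had 164 and 230.0 CPM in Langerhans cells, against 9.04 and 3.65 CPM in macrophages (4.98 ± 0.46, edgeR adjusted p = 0.0002), and Id2, which Langerhans cells need for their development, had 344 and 326 CPM, against 87.4 and 122 CPM (1.69 ± 0.25, edgeR adjusted p = 0.0017). Maf, a factor of resident macrophages, had 44.4 and 27.6 CPM, against 575 and 606 CPM (-4.05 ± 0.29, edgeR adjusted p = 7.8e-05). In all 4 of 20 lineage genes were higher and 8 lower. Csf1r was lower than in macrophages, with 197 and 326 CPM against 973 and 948 CPM (-1.93 ± 0.29, edgeR adjusted p = 0.0021), so that its level in Langerhans cells lay between those of the dermal dendritic cells and the macrophages.

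Several genes outside the lists were detected in many Langerhans cells and had no UMI in the dermal dendritic profiles, the macrophage profiles or both. P2rx2, an ATP-gated channel gene, had 157 and 181 CPM in Langerhans cells, in 60 of 83 cells at 2 months and 57 of 77 at 3 weeks, and 0 UMIs in dermal dendritic cells and macrophages, at least 42.1-fold and 83.9-fold higher (edgeR adjusted p = 0.0014 and 0.00019). The class I-like gene H2-M5 had 155 and 102 CPM, in 55 and 51 cells, and was likewise at 0 in both other classes (at least 31.8-fold and 63.3-fold). The sodium channel gene Scn3a had 93.2 and 64.4 CPM in 47 and 39 cells, and was at 0 in dermal dendritic cells and macrophages (at least 19.5-fold and 38.8-fold). Mmp9, a gelatinase gene, had 137 and 264 CPM in 51 and 65 cells, against 0 in dermal dendritic cells, and Gpr141 had 129 and 157 CPM in 49 and 61 cells, against 0 in macrophages. The lysophosphatidic acid receptor gene Lpar3 had 95.4 and 113 CPM, against 0 in dermal dendritic cells. By DESeq2's Wald test the calls of P2rx2, H2-M5 and Scn3a against both classes, and of Lpar3 against dermal dendritic cells, were lost.

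Other genes that met the same rule rested on few cells. All 303 Ccl21a UMIs at 2 months came from 1 cell and 347 of 352 at 3 weeks from another, and this gene has near-identical copies, so its value is uncertain. Psapl1, Elovl3 and Far2 were seen in 3 cells at 2 months and in 1 or 2 cells at 3 weeks, and 98.4% of the Cidea UMIs at 2 months were in 3 cells. At the low end, Rac2, a haematopoietic GTPase gene, had no UMI in Langerhans cells, against 116 and 130.4 CPM in dermal dendritic cells (at least 76.4-fold lower, edgeR adjusted p = 0.00052) and 114 and 111 CPM in macrophages (at least 71.2-fold lower, edgeR adjusted p = 9.9e-05). Cybb, the NADPH oxidase subunit, had 1.08 and 2.04 CPM, against 161 and 248 CPM in dermal dendritic cells (edgeR adjusted p = 0.00043). The complement receptor genes were low as well, with no C3ar1 UMI in Langerhans cells, against 315 and 226 CPM in macrophages (at least 168-fold lower), and C5ar1 at 1.08 and 1.02 CPM, against 654 and 713 CPM (edgeR adjusted p = 2.8e-05).

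Between 2 months and 3 weeks most Langerhans genes had like levels. Of 6084 genes measured at 20 or more UMIs in at least 1 library, 6% were higher at 2 months by 2-fold or more and 4.93% were lower by as much. Without the deepest members 80 genes were higher and 131 lower by that size, against 365 and 300 with them, so that the balance of directions turned. Among the 14 measured identity and adhesion genes 1 was that much higher and 1 lower. The lower one was Mfge8, with 1471 CPM (1394 to 1551) at 2 months and 4042 CPM (3917 to 4169.6) at 3 weeks, a log2 ratio of -1.46 (-1.55 to -1.37) and -1.18 without the deepest members. Macrophages also held less Mfge8 at 2 months, 22.6 CPM against 48.7 CPM at 3 weeks. After thinning each cell to 1500 UMIs, Mfge8 was seen in 69.9% of Langerhans cells (58.8 to 79.5) at 2 months and 89.6% (80.6 to 95.4) at 3 weeks, against 1.21% and 1.397% of the keratinocyte gate, from median depths of 5897 and 8039 UMIs in Langerhans cells and 9768.5 and 11455.5 UMIs in that gate. Unthinned shares were 91.6% and 93.5%. Fibroblasts express Mfge8 too, seen in 74.0% of fibroblast-gate barcodes at 3 weeks without thinning. The 6 fibroblast markers in Langerhans cells were also lower at 2 months, with 13685 CPM against 23493 CPM. The part of fibroblast transcripts in the Mfge8 difference was not tested.

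Cd207 and Epcam were lower at 2 months by less than 2-fold. Cd207 had 3214 CPM at 2 months and 5006 CPM at 3 weeks (log2 ratio -0.64, and -0.32 without the deepest members), and Epcam 422 and 646 CPM (-0.62, and -0.31). H2-M2 and Ltc4s were level, with log2 ratios of 0.03 (-0.06 to 0.13) and -0.17 (-0.37 to 0.02). Csf1r had 197 CPM (169.6 to 228) at 2 months and 326 CPM (291 to 364) at 3 weeks, and Csf2ra, a subunit of the GM-CSF receptor, 128 and 209 CPM, both under 2-fold. Without the deepest members their log2 ratios were -0.45 and -0.30, against -0.73 and -0.71 with them.

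The class II genes changed little between the ages in Langerhans cells. Of 13 measured, 0 passed 2-fold in either direction, against 6% of all measured genes higher and 4.93% lower by as much. At 2 months 12 of the 13 were lower, with a median log2 ratio of -0.42, against -0.05 over all genes. Without the deepest members 9 of the 13 were lower and the median was -0.04. In macrophages 10 of the 13 were higher at 2 months and the median over the 11 with a ratio was 1.59. Cd74 had 11968 CPM in macrophages at 2 months and 2307 CPM at 3 weeks, while its Langerhans levels were 32579.8 and 37791 CPM. The 12 measured class I pathway genes included 10 that were higher at 2 months in Langerhans cells, against 45.8% of all measured genes, and 0 that passed 2-fold.

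**Figure D4:**
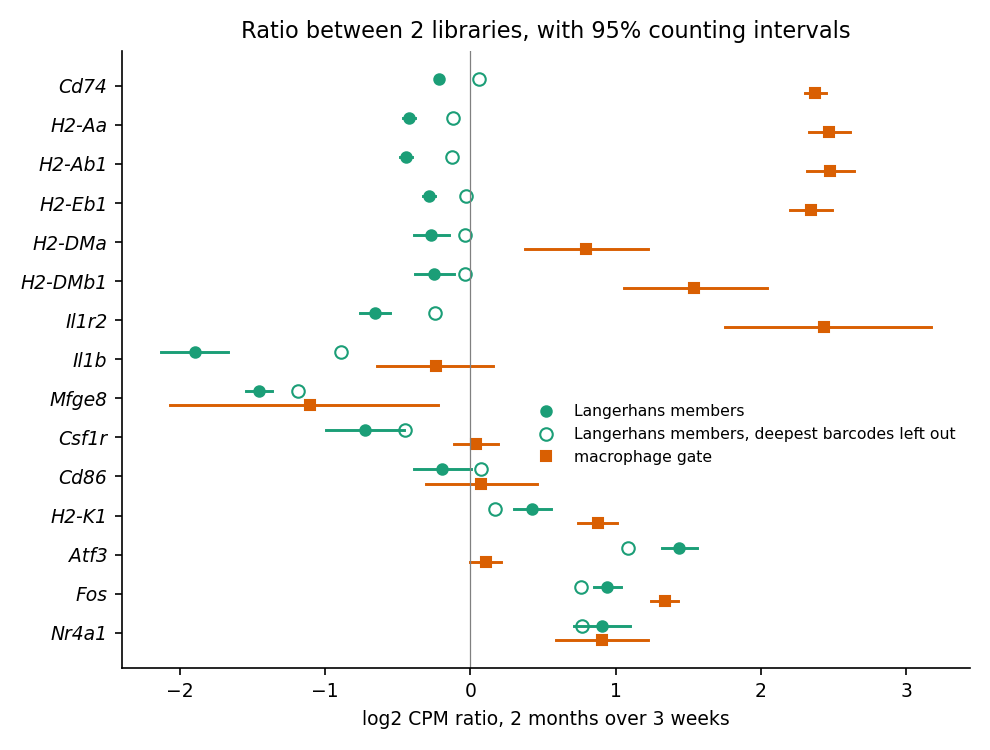
Log2 ratio of CPM, 2 months over 3 weeks, for 15 genes in Langerhans cells under 1% keratin (filled circles) and macrophages (squares) with 95% counting intervals, and in Langerhans cells without the deepest barcodes (open circles). In Langerhans cells Mfge8 lies at -1.46, Il1b at -1.90 and Atf3 at 1.44, and Cd74 lies at -0.21 there and at 2.37 in macrophages.

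Il1b, which encodes the pro-inflammatory cytokine IL-1 beta, was present in a minority of cells. It had 210.3 CPM (182 to 242) at 2 months and 784 CPM (729 to 841) at 3 weeks, a log2 ratio of -1.90, and -0.89 without the deepest members. It was seen in 18 of 83 cells at 2 months and 29 of 77 at 3 weeks, and 3 cells held 62.4% and 42.0% of its UMIs. At 1500 UMIs per cell the shares were 13.3% (6.81 to 22.5) and 23.4% (14.5 to 34.4), with overlapping intervals, against 0% and 0.233% in the keratinocyte gate. Il1r2 had 1363 and 2149.6 CPM, a log2 ratio of -0.66 (-0.25 without the deepest members), in 74 of 83 and 69 of 77 cells. Of 9 measured IL-1 family genes 0 were 2-fold higher and 1, Il1b, lower, against 6% and 4.93% of all measured genes.

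Dissociation-response genes were higher at 2 months in most gates, Langerhans cells included. Of 20 such genes 16 were higher in Langerhans cells, 16 in macrophages, 17 in dermal dendritic cells, 18 in keratinocytes and 11 in fibroblasts. Of all genes measured in Langerhans cells 45.8% were higher at 2 months. With the deepest members left out, 19 of the 20 were higher. The share over all genes was not taken for the other gates or without the deepest members, so those counts have no background here. Atf3, a stress-induced factor, was the only 1 of the 20 at least 2-fold higher in Langerhans cells, against 6% of all measured genes. It had 2123 CPM (2030.2 to 2219) at 2 months and 784 CPM (729 to 841) at 3 weeks (log2 ratio 1.44, and 1.09 without the deepest members). Fos had 2852 and 1483 CPM, and the keratinocyte gate held 4451 and 2508 CPM. Klf4, an immediate early and differentiation factor that is not among the 20, was also past 2-fold. It had 412 and 198 CPM in Langerhans cells and 940.2 and 590.2 CPM in keratinocytes. The part of tissue handling in these differences was not tested.

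Several replication genes had lower summed levels at 2 months, and the shares of cells holding them at equal depth had overlapping intervals. An overlap of intervals does not show that the shares are equal. Of 22 measured cell cycle genes 8 were at least 2-fold lower and 1, Cenpf, higher, against 4.93% and 6% of all measured genes. The lower ones were Mcm2, Mcm3, Mcm5, Mcm6 and Mcm7, which encode the replicative helicase, with Rrm2, Tk1 and Tpx2. Mcm2 had 9.75 CPM (4.46 to 18.5) at 2 months and 32.7 CPM (22.4 to 46.2) at 3 weeks, and Mcm6 had 7.59 CPM (3.05 to 15.6) and 28.6 CPM (19.02 to 41.4). With each cell thinned to 1500 UMIs, any of the 5 Mcm genes was seen in 8.43% of cells (3.46 to 16.6) at 2 months and 10.4% (4.59 to 19.4) at 3 weeks, and the intervals overlap almost whole. At 3000 UMIs per cell the shares were 8.64% (3.55 to 17.00) and 20.8% (12.4 to 31.5), with intervals that still overlap. Without the deepest members the log2 ratios of Mcm2 and Mcm6 were -2.83 and -2.24, against -1.75 and -1.92 with them. Unthinned shares were 28.9% and 42.9%. The mitotic gene Mki67 was seen in 4 of 83 cells at 2 months and 12 of 77 at 3 weeks, although its levels of 22.8 CPM (14.1 to 34.8) and 29.6 CPM (19.9 to 42.6) overlapped. Cells with 5 or more mitotic genes numbered 1 at 2 months and 9 at 3 weeks. Among these 9 were barcodes with collagen at 16.6% and 9.37% of UMIs and barcodes of 61791 and 53909 UMIs, against a median of 8039 UMIs. Others of the 9 had depths such as 11024 and 13527 UMIs. The 1 at 2 months had 33716 UMIs, against a median of 5897 UMIs. With each cell thinned to 1500 UMIs, 2 or more mitotic genes were seen in 3.61% (0.752 to 10.2) and 3.90% (0.811 to 10.97) of cells, so no difference was detectable at that depth.

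Other genes past 2-fold between the ages included lipid genes and markers of other skin cells. The 5 lipid genes at least 2-fold higher of 15 measured were Fabp5, Plin2, Apoe, Lpl and Cd36. Of all measured genes 6% were that much higher. Apoe had 4042 and 1984 CPM in Langerhans cells, and 6255 and 5239.9 CPM in keratinocytes. Plin2, which encodes a lipid droplet coat protein, had 458 and 138 CPM in Langerhans cells, a log2 ratio of 1.73, and 0.25 without the deepest members. Outside the lists, the highest ratios belonged to the keratinocyte genes Serpinb2, Dsg1a, Krt1, Dapl1, Calm5, Calm4 and Krtdap, and to Pi16, a fibroblast gene. Krt1 had 276 CPM at 2 months, in 7 cells, and 4.09 CPM at 3 weeks, in 4 cells. The lowest ratios belonged to the pigment cell genes Pmel, Dct, Ptgds, Tyrp1 and Mlana, to Acta2 and Tagln of contractile cells, and to Tm4sf1. Pmel had 1.08 CPM at 2 months, in 1 cell, and 280.1 CPM at 3 weeks, in 3 cells. These genes mark other skin cells and lay in at most 14 Langerhans cells of a library.

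The single neonatal Langerhans cell is described without comparison. It had 20394 UMIs and 3669 genes, with 22 UMIs of Cd207, 624 of Cd74, 233 of H2-Aa, 123 of H2-Ab1, 141 of H2-Eb1, 9 of Epcam and 18 of Mfge8. It carried no Krt5 or Krt14 UMI and no Xcr1 or Clec9a UMI. It held 86 UMIs of Il1r2, 47 of Il1b and 104 of Cxcl2. It also held 30 UMIs of the complement genes C1qa, C1qb and C1qc together, above the limit of 10 that the macrophage gate sets, so it carries markers of both classes. It held 6 UMIs of Xist, the transcript of the inactive X chromosome, whereas no Langerhans cell of the later libraries had any. Ddx3y, a Y-linked gene, was seen in 41 of 83 cells at 2 months and 45 of 77 at 3 weeks.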

How the data were processed

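The authors deposited 3 count matrices, 1 per age, of raw UMI counts per gene and barcode, with no normalization. The submitters' processing notes name mm10, Seurat 2.0 and Cell Ranger 3.0.2, and how barcodes were called is not given in the sources used here. Counts were read with Python 3.11.15 and pandas 2.3.3 and summed over the barcodes of each gate and library. No doublet caller was run. Barcodes with Krt5 and Krt14 at 1% of UMIs or more were kept out of the profiles. The keratinocyte gate held other barcodes at or above that 1%, and the fibroblast gate barcodes with little keratin and collagen transcripts. Summed profiles needed 20 or more barcodes.

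Ages were compared as ratios of CPM with exact intervals from scipy 1.17.1, with 2-fold as the size named. The 2 tests used edgeR 4.0.16 in R 4.3.3 (TMM scaling, low counts filtered, library as block, adjusted p under 0.05), tested on simulated data with known changes. Library is the pairing because profiles of 1 library come from the same tissue. DESeq2 1.42.0 was an alternative. Intervals at 95% and floors of 3 counts cover counting error only. Genes named outside the lists were, for each test, the 10 with the largest and the 10 with the smallest log2 difference among those called at 50 CPM or more in the higher class, and for the ages the 8 with the highest and the 8 with the lowest ratio at 50 or more UMIs. Members and lists were chosen with earlier results of these data known. Promoter sequences are RefSeq's (GRCm38.p6).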

Additional observations from a re-analysis of the deposited data

Results flagged for a closer look

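For 7 of 158 listed genes with 50 or more UMIs in both classes, Langerhans cells and macrophages went opposite ways between the ages, with intervals that exclude a ratio of 1 in each and log2 ratios (2 months over 3 weeks) at least 2 apart. The ratio in Langerhans cells minus that in macrophages was -2.89 for H2-Aa, -2.92 for H2-Ab1, -2.63 for H2-Eb1 and -2.59 for Cd74, all class II genes that were slightly lower at 2 months in Langerhans cells and 2.35 to 2.48 log2 units higher in macrophages. Without the deepest members the Langerhans ratios were -0.12, -0.13, -0.03 and 0.06 in the same order, so that Cd74 no longer went the opposite way. It was -3.09 for Il1r2, with ratios of -0.66 in Langerhans cells (-0.25 without the deepest members) and 2.43 in macrophages. It was 3.22 for Cxcl1 and 2.95 for Fabp5, of which 86.1% and 99.3% of the Langerhans UMIs at 2 months came from 3 cells. Their Langerhans ratios were 2.55 and 1.78, and 0.34 for both without the deepest members. With 1 library per age these differences were not tested. The median class II count of a barcode in the macrophage gate was 35 UMIs at 2 months and 1 UMI at 3 weeks, and the part of that gate's makeup was not tested.

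Outside the Langerhans cells as chosen, 21 barcodes at 2 months and 16 at 3 weeks passed the Cd207 and class II limits but held a Cd3e UMI, and 0 did so in the neonatal library. Their median depths were 51041 UMIs at 2 months and 10284.5 UMIs at 3 weeks, against 9186 and 10672.5 UMIs for the Langerhans cells. Whether they are doublets with T cells was not tested.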

How the results depend on the processing

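Both tests had library as a block. With no replicate block, 205 genes were higher and 291 lower than in dermal dendritic cells, against 241 and 309 with it, and 825 higher and 1043 lower than in macrophages, against 937 and 1130. Against dermal dendritic cells the higher genes numbered 132 by DESeq2's Wald test and 435 without the deepest members. With no filter on low counts 558 were higher and 511 lower of 15331 genes, and with all members, keratin at 1% or more included, 382 and 570. Leaving out 1 profile at a time gave 180 to 363 higher and 212 to 445 lower, the 363 without the dermal dendritic profile of 3 weeks. Against macrophages DESeq2's Wald test gave 475 higher and 623 lower, and leaving out 1 profile gave 554 to 571 higher and 685 to 751 lower, each Langerhans or macrophage profile alone moving the count by over 1.5 times. Of the 64 named genes called against dermal dendritic cells 39 were called in all 16 alternatives, and of 73 against macrophages 53 were.

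Against dermal dendritic cells Cxcl2 had a log2 difference of -0.20, which missed the threshold, and leaving out 1 profile gave -1.76 (without the dermal dendritic profile of 2 months) to 2.92 (without that of 3 weeks). Apoe changed sign to -0.54 and Fabp5 to -2.83 without the deepest members, against 1.87 and 4.38 with them. Epcam had an adjusted p of 0.167 by DESeq2's Wald test. Between the ages Wnt4 had a log2 ratio of 1.21, and -0.15 with all members.

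At 10 or more UMIs 669 genes were at least 2-fold higher and 627 lower at 2 months, at 50 or more UMIs 152 and 90, and without the deepest members 80 and 131, against 365 and 300; fewer genes are measured with higher limits. The share of Langerhans cells was 0.889% at 2 months and 0.865% at 3 weeks without members at 1% keratin or more, 0.847% and 0.753% when those with collagen or T cell transcripts were left out as well. It was 0.675% and 0.674% without members at 1% keratin or more and the deepest members, and 0.814% and 0.809% without members at 1% keratin or more and those with no Mfge8 UMI. These moves follow from counting fewer members.

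With 1 library per age, no animal numbers and members drawn from few cells, age values rest on single libraries and counting error alone. The deepest barcodes carry transcripts of other cell types, and gates rather than sorted cells define each class. The neonatal library gave no profile.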

Other observations

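Langerhans cells at 1% keratin or more kept the Langerhans transcripts at a lower share of a larger library. Cd207 had 1465 CPM at 2 months and 2264 CPM at 3 weeks in these 57 barcodes, against 3214 and 5006 CPM in members under 1% keratin, while their median Cd207 counts of 31 and 56 UMIs were not below the 20 and 46 UMIs of the others. A cut of 10 or more UMIs of mitotic genes was passed by 7 of 30 of them at 2 months and 8 of 27 at 3 weeks. Under 1% keratin it was passed by 1 of 83 and 9 of 77. Median depths were 28734 and 28629 UMIs at 1% keratin or more, against 5897 and 8039 UMIs under it. The cut is a raw count, so it does not compare these groups at equal depth. The keratinocyte gate held 61.3 CPM of Mki67 at 2 months and 66.1 CPM at 3 weeks. The part of keratinocyte transcripts in these mitotic counts was not tested.

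WNT pathway genes were sparse in Langerhans cells. Of 10 measured, 2 were at least 2-fold higher at 2 months (Wnt4 and Wnt10a) and 2 lower (Fzd2 and Wnt5a). Of all measured genes 6% were that much higher and 4.93% lower. Wnt4 had 52.0 CPM at 2 months, in 16 cells, and 22.5 CPM at 3 weeks, in 6 cells, and the keratinocyte gate held 269 and 409.5 CPM. With all members, keratin at 1% or more included, the ratio of Wnt4 changed direction. Ctnnb1, which encodes beta-catenin, had 152 CPM (128 to 179) and 160.5 CPM (136 to 188), which overlap. Among genes of activated, migrating dendritic cells, Ccr7 was seen in 3 Langerhans cells at 2 months and 1 at 3 weeks. Ccl22 was seen in 3 and 2 cells, and Fscn1 in 11 of 83 at 2 months and 17 of 77 at 3 weeks. The costimulatory gene Cd86 was seen in 81 and 74 cells, and Cd83 in 69 and 68, in the same order. Of the 38 Ccr7 UMIs at 2 months 30 came from 1 cell, and all 29 at 3 weeks came from 1 cell.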
